A study of Mus musculus with 26 samples.

Results

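The matrix metalloproteases (Mmp genes), the ADAMTS proteases (Adamts genes) and the tissue inhibitors of metalloproteases (Timp genes) were followed through 26 RNA sequencing libraries of mouse mammary tumors and tumor organoids. They were chosen by symbol alone, as every gene named Mmp, Adamts or Timp with a number, and 46 of the 37310 genes in the count tables qualified. Of these, 23 are Mmp genes, 19 are Adamts genes and 4 are Timp genes.

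Matrix metalloproteases are zinc-dependent enzymes that cut collagens, laminins, proteoglycans and many cell-surface proteins, and most are secreted as inactive proenzymes. ADAMTS proteases are secreted relatives with thrombospondin repeats, among them the aggrecanases that cleave proteoglycans and the enzymes that trim procollagens. Timp proteins bind the active site of these enzymes and block it, and matrix cutting in the mammary gland and its tumors depends on the balance of the 3 families.

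All libraries came from C57BL/6 mice carrying MMTV-PyMT, a transgene that expresses the polyoma middle T antigen from the mouse mammary tumor virus promoter, so that tumors arise in mammary epithelium. Tumor-bearing mice received an antisense oligonucleotide (ASO) under the skin at 125 mg/kg per week. The tumor libraries were 3 with the Malat1 oligonucleotide ASO1, 4 with the Malat1 oligonucleotide ASO2 and 3 with the control oligonucleotide scASO. Organoids grown from such tumors in Matrigel, a basement membrane gel, with FGF2 were kept with 500 nM oligonucleotide for 6 days, renewed after 3 days. There were 4 organoid libraries each for ASO1, ASO2, scASO and Mock, for which no oligonucleotide is named. Malat1 is a nuclear long noncoding RNA, and the design asks which genes differ once it is reduced. The labels leave unsaid whether replicates are separate mice, tumors or cultures, and p-values therefore rest on the spread between libraries, which may be technical.

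Between 9939520 and 51363552 reads fell in genes per tumor library and between 23973533 and 65146030 per organoid library. Values below are CPM, read counts divided by the TMM-scaled size of the library and put on the usual scale for that unit. In tumors Malat1 lay at 381 to 913 CPM with ASO1 or ASO2 and at 847 to 1914 CPM with scASO. In organoids it lay at 87.0 to 307 CPM with ASO1 or ASO2 and at 713 to 1578 CPM with scASO or Mock, with 2 exceptions. The library labelled ASO2 replicate 1 held 1485 CPM and the library labelled scASO replicate 2 held 119 CPM, against their labels. The same 2 libraries stood apart from their replicate numbers in Adamts15, a proteoglycan-cleaving ADAMTS. Adamts15 was at 51.3, 48.4 and 44.1 CPM in the other organoids numbered 1 and at 15.1 CPM in the library labelled ASO2 replicate 1, and at 21.1, 20.9 and 15.9 CPM in the other organoids numbered 2 and at 53.1 CPM in the library labelled scASO replicate 2. Counts of called members that rest on these 2 libraries are given with and without them. Variance shares and correlations over organoids include them.

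Scaled by exon length, Timp2, the inhibitor that also takes part in activating Mmp2, was the most abundant member in tumors. Its level was 45.2 ± 17.2 CPM per kb (SD over 10 libraries). The membrane-bound protease Mmp15 followed at 27.2 ± 8.90, the gelatinase Mmp2 at 20.6 ± 17.4, the membrane-bound Mmp14, which activates pro-Mmp2, at 15.3 ± 6.57, the matrix-bound inhibitor Timp3 at 12.9 ± 7.31 and Timp1 at 12.4 ± 6.18 CPM per kb. The neighbours in this order overlapped in their ranges over libraries. In organoids Timp1, the inducible inhibitor, came first at 81.4 ± 79.0 CPM per kb (SD over 16 libraries), with the stromelysin Mmp3 next at 78.6 ± 65.8, the aggrecanase Adamts1 at 54.9 ± 33.5, Timp2 at 49.3 ± 14.8, Mmp15 at 47.0 ± 19.6 and the collagenase Mmp13 at 33.3 ± 39.0. The SD of Timp1, Mmp3 and Mmp13 was close to or above their mean, so their order in organoids is not resolved.

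At the low end, 7 members had too few reads for a test within either system. They were the tooth enamel protease Mmp20, Mmp21, Mmp24, Adamts13, which cleaves von Willebrand factor, Adamts16, Adamts19 and Timp4. Mmp20 had 5 reads in all libraries together. A further 4 members, Mmp1a, Mmp1b, Mmp10 and Mmp16, reached the count minimum in organoids but not in tumors, and Mmp27 reached it in tumors but not in organoids. This left 35 members tested in tumors, 38 in organoids and 41 in the fit of both systems.

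**Figure D1:**
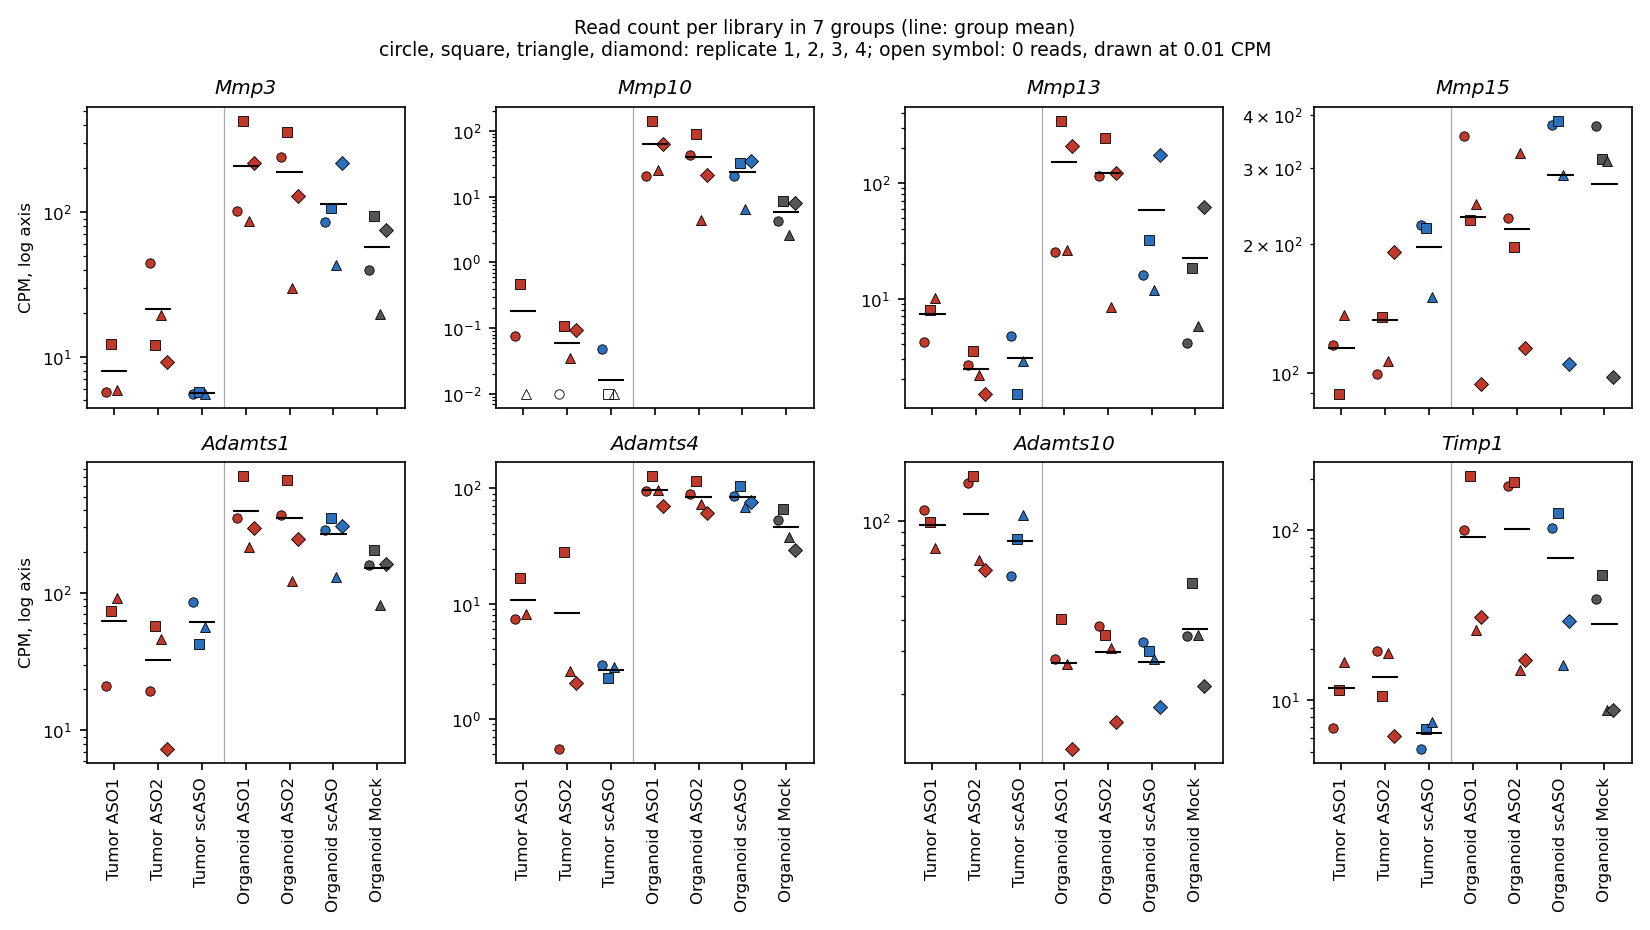
CPM on log axes (y) in each library of the 7 groups (x) for 8 genes, with the group mean as a line and the replicate number as the symbol shape. Mmp10 lies at or below 0.465 CPM in every tumor and at or above 2.64 CPM in every organoid, Adamts10 is higher in every tumor than in any organoid, and among organoids Mmp15 is lowest in those numbered 4. Of all genes tested, 5.18% were higher and 5.68% lower in every organoid than in any tumor. Mmp10 reached the count minimum in organoids but not in tumors.

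Organoids were compared with tumors within the scASO groups, which were both given the control oligonucleotide. The stromelysins Mmp3 and Mmp10, the collagenase genes Mmp13, Mmp1a and Mmp1b and several ADAMTS proteases were higher in organoids, while the neutrophil collagenase Mmp8, the membrane-bound Mmp14 and Mmp15, the gelatinases Mmp2 and Mmp9, and Timp2 did not pass the test. Of 41 members, 13 were higher and 2 lower at an adjusted p below 0.05 (edgeR quasi-likelihood test, Benjamini-Hochberg adjustment). The 13 include Mmp10, Mmp1a and Mmp1b, which reached the count minimum in organoids but not in tumors. Their entry into this fit rested on their organoid level, so their calls add no separate support. Over all 18695 genes tested, 11.4% were higher and 12.1% lower. The median log2 fold change was 0.85 over the 41 members and -0.00 over all genes tested. The 2 systems differ in tissue, culture and cell makeup at once, and these cannot be told apart. In bulk RNA, more cells of a type and more RNA per cell cannot be told apart either.

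The stromelysin Mmp3, which cuts proteoglycans and laminin and activates other Mmp proenzymes, was at 5.54, 5.69 and 5.53 CPM in the scASO tumors and at 85.8, 107, 43.3 and 219 CPM in the scASO organoids. The lowest organoid was thus above the highest tumor, and the log2 fold change was 4.35 ± 0.85 (SE, adjusted p = 0.00096). Mmp13, the main interstitial collagenase of the mouse, lay at 4.75, 1.49 and 2.86 CPM in scASO tumors and at 16.1, 31.9, 11.8 and 173 CPM in scASO organoids, a log2 fold change of 4.26 ± 1.25 (adjusted p = 0.017). The organoid library numbered 4 stood far above the other 3.

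Stromelysin 2 (Mmp10) was close to absent from tumors, with 2 reads in the 3 scASO tumors and 37 reads in all 10 tumors. The scASO organoids held 20.4, 32.0, 6.40 and 34.9 CPM. The pooled ratio was 1260, with a 95% exact interval of 349 to 10400 that covers counting error only. The collagenase gene Mmp1b had 1 read in the scASO tumors and 58 reads in the scASO organoids, a pooled ratio of 50.9 (interval 8.79 to 2050). Mmp1a had 0 reads in all 10 tumors and 109 reads in the scASO organoids, which put it at least 31.9-fold higher in organoids when 3 reads over the scASO tumors are taken as the floor. The adjusted p was 9.44e-05 for Mmp10, 0.000374 for Mmp1a and 0.0432 for Mmp1b, genes that entered this fit through their organoid counts. Mmp1a and Mmp1b are close copies of each other, so reads that align to both were not counted and their values are uncertain. The annotation used here lists Mmp1a as a polymorphic pseudogene and Mmp1b as protein-coding. Mmp1b also overlaps Mmp12 on the opposite strand over 1261 bases.

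Among the ADAMTS proteases, the aggrecanase Adamts4 was at 2.91, 2.27 and 2.82 CPM in the scASO tumors and at 85.9, 106, 68.6 and 75.5 CPM in the scASO organoids. Its log2 fold change was 4.97 ± 0.87 (adjusted p = 0.000428). All 16 organoids (29.2 CPM or more) were also above all 10 tumors (28.1 CPM or less), as for 5.18% of all genes tested. The other aggrecanases moved the same way, with log2 fold changes of 2.12 ± 0.65 for Adamts1 (adjusted p = 0.0219) and 2.65 ± 0.78 for Adamts5 (adjusted p = 0.018). The procollagen-processing Adamts14 rose by 3.10 ± 0.87 and the cartilage oligomeric matrix protein-cleaving Adamts7 and Adamts12 by 1.94 ± 0.53 and 1.90 ± 0.60, all on the log2 scale.

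Adamts10, a protease that binds fibrillin microfibrils, went the other way. It was at 59.9, 84.2 and 106 CPM in the scASO tumors and at 32.4, 29.9, 27.7 and 17.8 CPM in the scASO organoids, with a log2 fold change of -1.63 ± 0.39 (adjusted p = 0.00461). All 10 tumors (59.9 CPM or more) were above all 16 organoids (56.0 CPM or less), as for 5.68% of all genes tested. Its relative Adamts6 was the other member that fell, by -1.73 ± 0.55 (adjusted p = 0.0266), from a low level of 0.657 to 2.22 CPM in the scASO tumors.

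Of the inhibitors, only Timp1 passed the test. It lay at 5.17, 6.79 and 7.46 CPM in the scASO tumors and at 103, 126, 16.2 and 29.1 CPM in the scASO organoids, a log2 fold change of 3.41 ± 1.01 (adjusted p = 0.0186). Timp2 differed by 0.10 ± 0.35, Timp3 by 0.85 ± 0.52 and the low Timp4 by 1.61 ± 0.92 without passing. Timp1, Timp3 and Timp4 lie inside the synapsin genes Syn1, Syn3 and Syn2 on the opposite strand. Likewise Adamts7 overlaps Tbc1d2b on the opposite strand over 6045 bases. The sources used here do not give a strand setting for the counting, so reads of such pairs cannot be told apart.

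The calls for Mmp3, Mmp10, Mmp1a, Adamts4 and Adamts10 held whichever of the 7 scASO libraries was left out. The others each lost the threshold at least once, and the count fell from 15 (23.5% of all genes) to 7 without tumor scASO replicate 3 (13.7%) and to 10 without tumor scASO replicate 2 (14.2%). Without the 2 libraries that go against their labels, 10 members passed (16.6%). Timp1 was then not among them. No overlap between the scASO groups was seen for 18 of 41 members that were higher in organoids (43.9%, against 19.4% of all genes tested) and for 2 that were lower (20.9% of all genes tested). The 18 include Mmp10, Mmp1a and Mmp1b, which reached the count minimum in organoids but not in tumors. Over all libraries of both systems, 3 of 41 were higher without overlap (7.32%, against 5.18% of all genes tested). In the other direction it was 1 of 41 (2.44%, against 5.68%). The 3 were Adamts4, Mmp10 and Mmp1a, and the last 2 reached the count minimum in organoids but not in tumors. Their separation therefore adds no separate support.

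**Figure D2:**
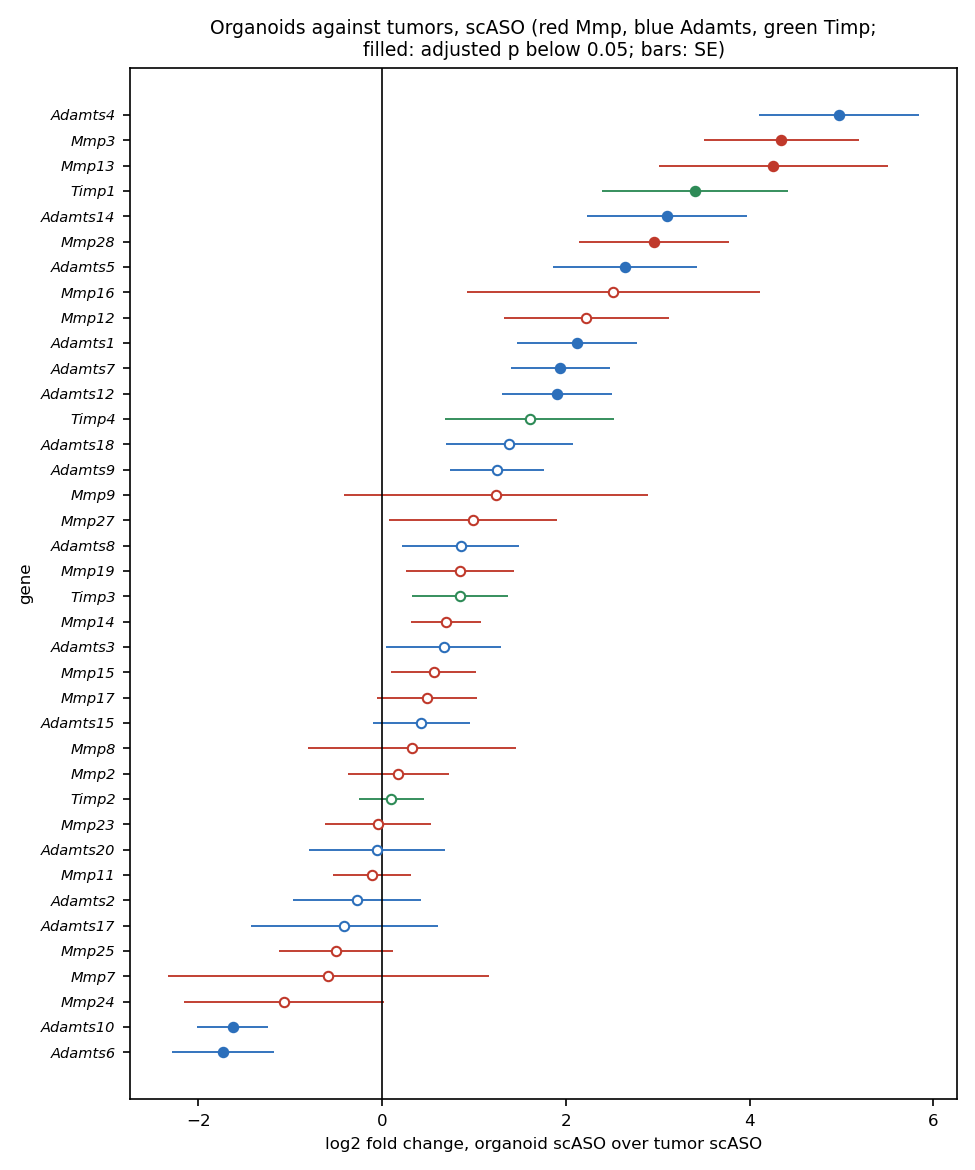
Log2 fold change (x, with SE bars) of organoid scASO over tumor scASO for 38 genes (y), filled where the adjusted p is below 0.05. Mmp1a, Mmp1b and Mmp10 are left out because the scASO tumors held at most 2 reads of each. Adamts4, Mmp3, Mmp13 and Timp1 lie at the top, and Adamts10 and Adamts6 at the bottom.

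The cell makeup of the 2 systems differed at the same time. Over all genes tested, 11.4% were higher and 12.1% lower in organoids. In the same comparison 8 of 10 endothelial, 7 of 13 macrophage, 5 of 7 tested T and B cell and 7 of 16 fibroblast and pericyte markers were lower in organoids, while 2 fibroblast and pericyte markers were higher. The summed endothelial markers ran from 43.0 to 184 CPM in tumors and from 8.37 to 31.7 CPM in organoids, and the summed fibroblast and pericyte markers from 656 to 3297 and from 472 to 1462 CPM. Cd8a and Ms4a1 had 0 reads in every organoid library. None of the 11 luminal epithelial markers passed. Squamous keratinocyte markers, with 3 of 9 higher, summed to 18.0 to 86.8 CPM in tumors and 169.9 to 6639 CPM in organoids. The part of these cell types in the protease differences was not tested.

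Genes that act on or with these proteases also differed, in a comparison where 11.4% of all genes tested were higher and 12.1% lower. Of 30 tested activators, inhibitors and partners, 10 were higher and 2 lower in organoids, among them the urokinase Plau (3.15 ± 0.64 on the log2 scale), which makes plasmin, and the hyaluronan receptor Cd44 (1.49 ± 0.34), which can dock proteases at the cell surface. Matrix substrates were split, with 5 higher and 6 lower of 22. The fibronectin gene Fn1 (5.28 ± 0.79) and tenascin C, Tnc (5.25 ± 0.96), were higher, and the fibrillar collagens Col1a1 (-1.33 ± 0.47) and Col3a1 (-2.87 ± 0.83) were lower. Of 16 transcription factors of the AP-1, ETS and other classes known to act on Mmp promoters, 6 were higher and 1 lower, including the AP-1 subunits Fosl1 (4.11 ± 1.08) and Junb (2.04 ± 0.40) and the ETS factor Etv4 (2.35 ± 0.38).

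Several of the largest differences sat together in the genome. In GRCm38, 10 Mmp genes form a cluster of 427.1 kb on chromosome 9, from 7272514 to 7699585, in the order Mmp13, Mmp12, Mmp1b, Mmp3, Mmp1a, Mmp10, Mmp8, Mmp27, Mmp20 and Mmp7. The 5 members of the cluster that were called higher, Mmp13, Mmp1b, Mmp3, Mmp1a and Mmp10, lie in its first 6 positions. Over all genes tested, 11.4% were higher. Mmp1b, Mmp1a and Mmp10 entered this fit through their organoid counts, so their calls add no separate support. Mmp12, the macrophage elastase, which lies between them, differed by 2.22 ± 0.90 without passing (adjusted p = 0.0764). At the other end, the neutrophil collagenase Mmp8 (0.33 ± 1.13), Mmp27 (0.99 ± 0.91) and the epithelial matrilysin Mmp7 (-0.59 ± 1.75) did not pass. Cluster genes summed to 9.79 to 21.5 CPM in the scASO tumors, to 90.1 to 492 CPM in the scASO organoids and to 41.8 to 189 CPM in the Mock organoids.

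**Figure D3:**
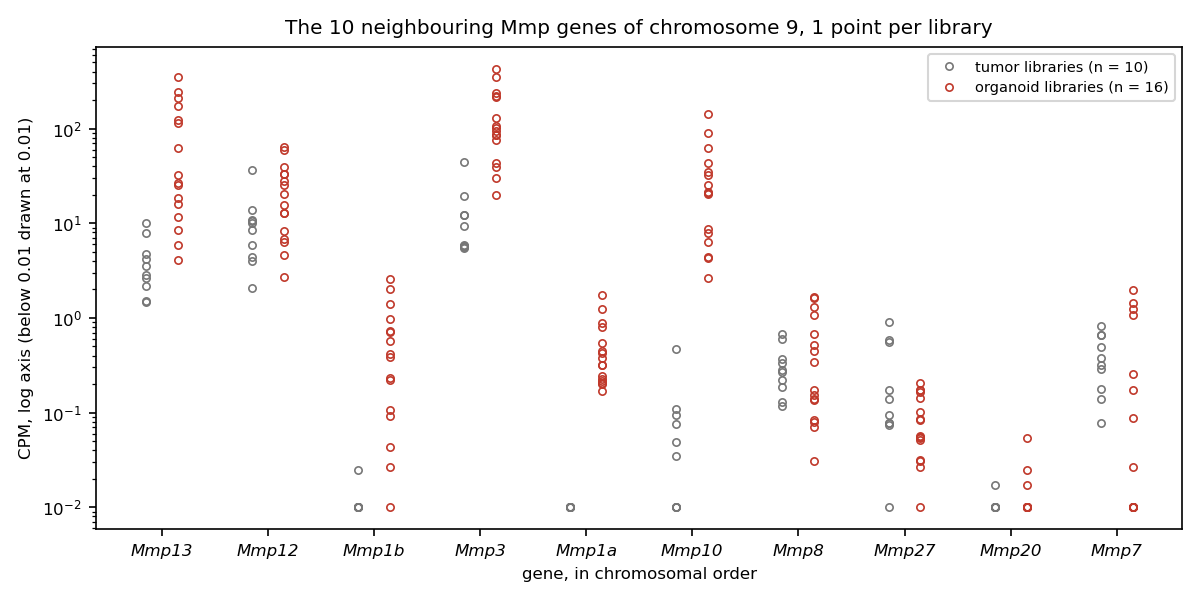
CPM on a log axis (y) for the 10 neighbouring Mmp genes of chromosome 9 in chromosomal order (x), 1 point for each of 10 tumor and 16 organoid libraries, with values below 0.01 drawn at 0.01. Mmp10 and Mmp1a separate all organoids from all tumors, whereas Mmp3, Mmp13, Mmp12, Mmp8 and Mmp20 are among those that overlap. Of all genes tested, 5.18% were higher in every organoid than in any tumor. Mmp10 and Mmp1a reached the count minimum in organoids but not in tumors.

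Promoter sequence was available in the RefSeq table (GRCm38.p6) for 32 of the 46 members, as windows of 250 bases before to 50 bases after a gene start. Either form of the AP-1 motif, TGACTCA or TGAGTCA (each the reverse complement of the other, so that 1 position is counted once), was found in 7 of these 32 genes (21.9%) and in 5.2% of all 32851 promoter windows. The 7 genes were Mmp13, Mmp12, Mmp1b, Mmp3, Mmp1a, Mmp10 and Mmp7, all of the chromosome 9 cluster, with the match starting 35, 44, 93, 46, 73, 63 and 63 bases before a gene start (for Mmp12, a second RefSeq start inside the gene). The hexamer TATAAA was found on either strand in 11 of 32 genes (13.6% of all windows) and AGGAAG, a core bound by ETS factors, in 15 of 32 (35.4% of all windows). A match is a description of the letters, not a measured site. Below are the 150 bases before the start for the called cluster genes on their own strands, with the AP-1 match in capitals, and for Mmp8, a cluster gene that was not called and whose windows hold no match. The match does not separate called from uncalled genes, since Mmp12 and Mmp7 hold it and were not called.
Mmp13 (chr9:7272364-7272513, plus strand): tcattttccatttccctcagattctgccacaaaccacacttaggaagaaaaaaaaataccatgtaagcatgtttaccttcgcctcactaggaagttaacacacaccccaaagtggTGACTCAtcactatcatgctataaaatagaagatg
Mmp1b (chr9:7388027-7388176, minus strand): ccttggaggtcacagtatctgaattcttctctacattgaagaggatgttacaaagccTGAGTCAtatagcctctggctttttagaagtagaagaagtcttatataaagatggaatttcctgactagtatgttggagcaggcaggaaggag
Mmp3 (chr9:7445672-7445821, plus strand): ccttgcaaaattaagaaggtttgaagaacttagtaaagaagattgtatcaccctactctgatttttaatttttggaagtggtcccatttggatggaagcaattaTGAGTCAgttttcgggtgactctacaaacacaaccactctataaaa
Mmp1a (chr9:7463991-7464140, plus strand): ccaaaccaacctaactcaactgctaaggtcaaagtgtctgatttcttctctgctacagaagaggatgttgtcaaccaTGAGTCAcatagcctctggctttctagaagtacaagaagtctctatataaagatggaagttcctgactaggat
Mmp10 (chr9:7502192-7502341, plus strand): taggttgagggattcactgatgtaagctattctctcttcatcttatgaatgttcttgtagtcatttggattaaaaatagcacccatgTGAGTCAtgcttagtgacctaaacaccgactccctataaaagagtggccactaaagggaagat
Mmp8 (chr9:7558279-7558428, plus strand): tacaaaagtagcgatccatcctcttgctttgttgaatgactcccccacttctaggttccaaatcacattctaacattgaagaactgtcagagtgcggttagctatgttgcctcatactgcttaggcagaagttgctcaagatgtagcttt

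All 3 oligonucleotides, the control included, were compared with Mock in organoids. In the fit that pairs libraries by number, Timp1, the aggrecanase Adamts4 and Adamts7 were higher with each of them, Mmp10, Mmp1b, Adamts1 and Adamts5 passed for ASO1 and for ASO2, and Mmp3 passed for ASO1. Replicate numbers pair the organoid libraries, with deviations correlated above 0.1 in 24 of 24 same-numbered pairs and 14 of 72 others. Results are therefore given without and with the number as a block. The block used the labelled numbers. ASO2 replicate 1 correlated more with Mock replicate 2 than with Mock replicate 1, and scASO replicate 2 more with Mock replicate 1 than with Mock replicate 2. Without the block, 0 of 38 members passed for ASO1, ASO2 or scASO against Mock, and 0% of 17126 genes did. At an unadjusted p under 0.05 these counts were 7, 5 and 4 members (1.93%, 1.82% and 1.59% of all genes). DESeq2 called 1 member, Mmp10, for ASO1 (0.0265% of all genes) and 0 for the others (0%). With the block, 9 members were higher with ASO1 (1.87% of all genes), 8 with ASO2 (1.45%) and 3 with scASO (0.549%). None was lower, against 0.502%, 0.368% and 0.199% of all genes. The 3 comparisons share the 4 Mock libraries.

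Timp1 showed the pattern library by library. In Mock organoids 1 to 4 it was at 39.4, 54.6, 8.75 and 8.83 CPM, with ASO1 at 100.3, 208, 25.9 and 30.7 CPM, with ASO2 at 181, 192, 14.99 and 17.3 CPM, and with scASO at 103, 126, 16.2 and 29.1 CPM. The groups overlap because the numbers differ more than the treatments, yet within each number Mock was the lowest. With the block the log2 fold change over Mock was 1.67 ± 0.25 for ASO1 (adjusted p = 0.00588), 1.50 ± 0.25 for ASO2 (adjusted p = 0.0144) and 1.3 ± 0.25 for scASO (adjusted p = 0.0389).

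The stromelysins followed. Mmp10 was at 4.33, 8.71, 2.64 and 7.91 CPM in Mock, at 20.7, 143, 25.1 and 63.0 CPM with ASO1, at 43.2, 90.8, 4.43 and 21.6 CPM with ASO2 and at 20.4, 32.0, 6.40 and 34.9 CPM with scASO. Its blocked log2 fold changes were 3.24 ± 0.48 for ASO1 (adjusted p = 0.00563), 2.44 ± 0.48 for ASO2 (adjusted p = 0.0261) and 1.92 ± 0.47 for scASO (adjusted p = 0.0906). Mmp3 rose from 39.5, 93.6, 19.7 and 74.8 CPM in Mock to 102, 427, 86.5 and 217 CPM with ASO1, by 1.85 ± 0.40 on the log2 scale (adjusted p = 0.0285). For ASO2 and scASO it differed by 1.62 ± 0.40 (adjusted p = 0.0623) and 1.08 ± 0.40 (adjusted p = 0.215) without passing.

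Of the genes named as collagenases, Mmp1b was at 0.0267, 0.0914, 0 and 0.712 CPM in Mock and at 0.383, 0.967, 0.229 and 2.56 CPM with ASO1. Its blocked log2 fold changes were 2.64 ± 0.41 for ASO1 and 2.36 ± 0.42 for ASO2 (adjusted p = 0.00635 and 0.0172). These rest on 0 to 17 reads per Mock library, 13 to 103 with ASO1 and 4 to 117 with ASO2. Mmp13 lay at 4.09, 18.3, 5.83 and 62.2 CPM in Mock and at 25.3, 347, 26.5 and 211 CPM with ASO1, and its difference of 2.72 ± 0.69 just missed the threshold (adjusted p = 0.0573).

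Of the aggrecanases, Adamts4 was at 53.1, 66.5, 37.6 and 29.2 CPM in Mock, at 94.5, 129, 97.7 and 69.7 CPM with ASO1, at 89.6, 116, 73.2 and 61.2 CPM with ASO2, and at 85.9, 106, 68.6 and 75.5 CPM with scASO. Each ASO1 and scASO organoid was above every Mock organoid, and the log2 fold changes were 1.09 ± 0.11, 0.87 ± 0.11 and 0.89 ± 0.11 with the block (adjusted p = 0.0011, 0.00572 and 0.00653). Adamts1 rose by 1.29 ± 0.19 with ASO1 and 1.02 ± 0.19 with ASO2, and Adamts5 by 1.48 ± 0.25 and 1.29 ± 0.25, while with scASO these 2 differed by 0.81 ± 0.19 and 0.74 ± 0.25 without passing. Adamts7 rose with all 3, by 0.65 ± 0.12, 0.63 ± 0.12 and 0.71 ± 0.12. The collagen-cutting, membrane-bound Mmp14 passed for ASO1 (0.42 ± 0.10, adjusted p = 0.0498), and the epithelial protease Mmp28 (epilysin) for ASO2 (1.25 ± 0.29, adjusted p = 0.0477).

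Leaving out single libraries moved these counts to 6 to 11 for ASO1, 1 to 9 for ASO2 and 1 to 2 for scASO. The share of all genes called moved with them, to 0.738 to 2.49%, 0.0632 to 1.54% and 0.0288 to 0.621%. For ASO2 the member count fell to 1 without ASO2 replicate 2 or Mock replicate 2, to 2 without Mock replicate 1, to 4 without ASO2 replicate 1 or Mock replicate 4 and to 5 without Mock replicate 3. For scASO 1 member was left without Mock replicate 2, 3 or 4 or scASO replicate 1, 2 or 4. Adamts4 passed in each of these fits for all 3 oligonucleotides, and Timp1, Mmp10, Mmp1b and Adamts1 in each of them for ASO1. Without the 2 libraries that go against their labels, 16 of 39 members passed for ASO1 (6.69% of all genes), 11 for ASO2 (3.42%) and 8 for scASO (1.78%). The 8 with scASO were Adamts4, Timp1, Adamts7, Mmp3, Mmp10, Adamts1, Mmp12 and Mmp13, all higher.

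The mean of the 3 oligonucleotides against Mock was added after these values were seen. With the block 9 of 38 members were higher and 0 lower (2.38% and 0.923% of all genes), and the members' median was 0.41 against -0.01 for all genes. They were Adamts4 (0.95 ± 0.09), Timp1 (1.49 ± 0.22), Adamts7 (0.66 ± 0.10), Adamts1 (1.04 ± 0.16), Mmp10 (2.53 ± 0.43), Mmp1b (2.17 ± 0.37), Adamts5 (1.17 ± 0.21), Mmp14 (0.42 ± 0.09) and Mmp3 (1.52 ± 0.35). The count was 4 without Mock replicate 2 (0.845% of all genes in either direction, against 3.3% with it) and 19 of 39 without the 2 libraries against their labels (9.04% of all genes), of which 17 were higher. The 2 that fell were Adamts10, by -0.40 ± 0.09, and Adamts18 by -0.60 ± 0.17. Each oligonucleotide library was above the Mock library of its number, in 12 of 12 cases, for 10 of 38 members (3.26% of all genes): Adamts1, Adamts4, Adamts5, Adamts7, Mmp1b, Mmp3, Mmp10, Mmp13, Mmp14 and Timp1. For 0 of 38 was each below (2.08% of all genes).

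**Figure D4:**
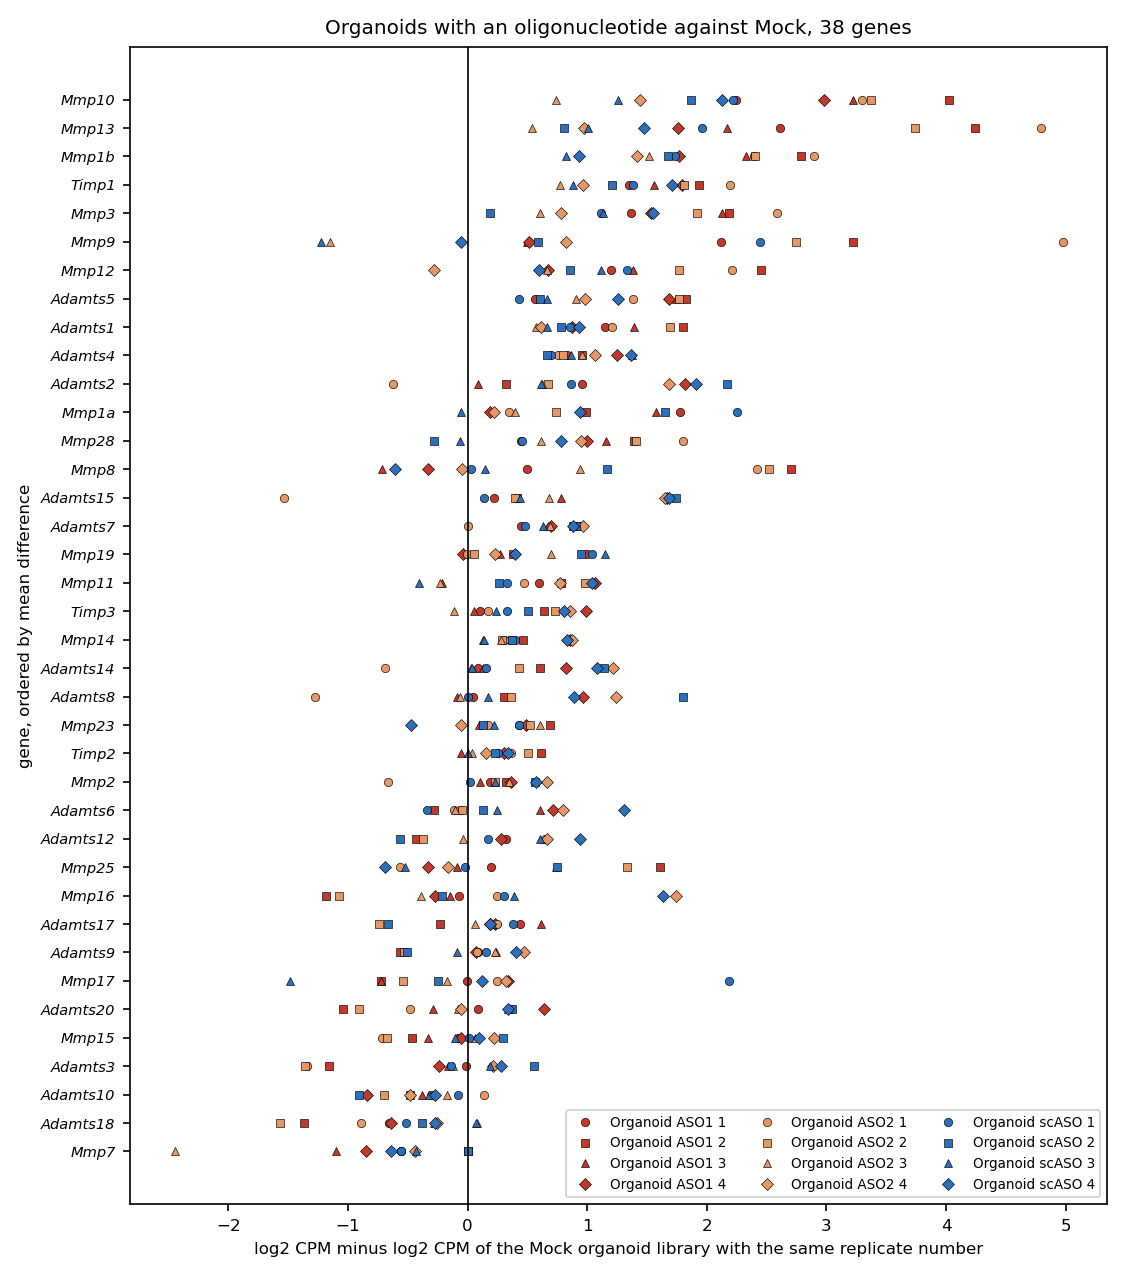
Log2 CPM of each oligonucleotide-treated organoid library minus that of the Mock library with the same replicate number (x) for 38 genes (y), with colour for the oligonucleotide and shape for the number. For Mmp10, Mmp13, Mmp1b, Timp1, Mmp3, Adamts5, Adamts1, Adamts4, Adamts7 and Mmp14 all 12 points lie above 0.

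Partner genes moved in the same contrast, in which 2.38% of all genes were higher and 0.923% lower. Of 29 tested activators, inhibitors and partners 7 were higher and 0 lower, including the endocytic receptor Lrp1, which clears proteases and their inhibitor complexes (0.92 ± 0.10), the plasminogen activator Plat (0.91 ± 0.16), the urokinase receptor Plaur (0.85 ± 0.20) and the collagen-degrading cathepsin Ctsk (1.25 ± 0.26). Of 22 matrix substrates 6 were higher and 0 lower, led by Fn1 (1.05 ± 0.16), Nid1 (0.65 ± 0.11), which links laminin to collagen IV, and Tnc (1.4 ± 0.28). Of 16 transcription factors 1 passed, Fosl1 (1.35 ± 0.32, adjusted p = 0.0402). Fibroblast and pericyte markers were positive in 14 of 16 cases (median 0.45), with 2 called, and the basal keratins Krt5, Krt14 and Krt17 were the 3 of 10 basal markers that were called higher. Summed fibroblast and pericyte markers ran from 472 to 1232 CPM in Mock and from 541 to 1462 CPM with an oligonucleotide. Against the Mock library of the same number, summed markers were higher in 12 of 12 oligonucleotide libraries for basal and myoepithelial cells, in 11 of 12 for squamous keratinocytes, endothelium, and T and B cells, in 10 of 12 for fibroblasts and pericytes and for macrophages, and in 4 of 12 for neutrophils. These sums weigh abundant markers most. The T and B cell sums were near the floor, at 0.32 to 1.42 CPM over all organoids. The mean log2 CPM over macrophage markers was below that Mock library in every ASO2 library, and mixed with ASO1 and scASO. Without the 2 libraries against their labels, the blocked fit called 2 of 13 macrophage markers higher and 4 lower (median -0.32). Mean log2 CPM of basal markers in organoids numbered 3 was 6.22 (ASO1), 6.34 (ASO2) and 6.17 (scASO), against 6.355 in Mock. It was above Mock in the other numbers. In the blocked fit all 10 endothelial markers were positive (median 0.44, none called), as were 7 of 9 tested squamous keratinocyte markers (median 0.13), with 2 called. The part of these cell types in the protease differences was not tested.

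The Malat1 oligonucleotides were then set against the control oligonucleotide. In organoids 0 of 38 members passed for ASO1, ASO2 or both against scASO, without or with the block, as did 0% of all genes. Malat1 itself did not pass for both ASOs without the block, at -1.53 ± 0.61 (edgeR, adjusted p = 0.9998). A count of 0 therefore does not show that members were unchanged. The edgeR count at an unadjusted p under 0.05, for both ASOs against scASO, was 0 members without the block (1.06% of all genes) and 12 of 38 with it (18.4%). DESeq2 called 0 members (0% of all genes). Without the 2 libraries against their labels the blocked count at that p was 0 of 39. The blocked differences with the smallest p were those of Mmp28 (0.87 ± 0.26), the broad-acting Mmp19 (-0.55 ± 0.18), Mmp1b (0.96 ± 0.32) and Adamts5 (0.65 ± 0.22), with adjusted p from 0.196 to 0.204. Mmp10 differed by 0.92 ± 0.39 and Mmp13 by 1.44 ± 0.61. Without those 2 libraries the values were 0.37 ± 0.19 for Mmp28, -0.40 ± 0.19 for Mmp19, 0.76 ± 0.35 for Mmp1b, 0.35 ± 0.22 for Adamts5, 0.26 ± 0.36 for Mmp10 and 0.31 ± 0.39 for Mmp13. The median over members was -0.00 with the block, against 0.00 for all genes. At the adjusted threshold the count without the 2 libraries was 0 members (0.0231% of all genes).

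In organoids the replicate number carried most of the variance. The number took a median of 71.6% of the variance in log2 CPM over the 38 members and the treatment 16.2%, against 70.7% and 8.34% over all 17126 genes. Adamts4 was an exception with 34.5% between numbers and 60.5% between treatments, and Mmp10 had 37.7% and 49.7%. Matrilysin (Mmp7) had 93.3% between numbers, at 1.07 to 1.97 CPM in the organoids numbered 4 and at 0.254 CPM or less in the others. The gelatinase Mmp9 was at 33.0 to 60.9 CPM in those numbered 4 and from 0.174 to 41.4 CPM in the rest. Mmp15 was at 94.6 to 114 CPM there and at 197 to 387 CPM elsewhere. Squamous keratinocyte markers summed to 4257 to 6639 CPM in the organoids numbered 4 and to 169.9 to 699.9 CPM in the others, and their part in these levels was not tested.

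In tumors no member passed the test for a Malat1 oligonucleotide. For both ASOs against scASO 0 of 35 members passed, as did 0 of 17354 genes (0%), with 5 members (5.86% of all genes) at an unadjusted p under 0.05. For ASO1 it was 0 members (0.00576% of all genes), with 7 at an unadjusted p under 0.05 (8.45% of all genes). For ASO2 it was 0 (0% of all genes), with 6 at that p (5.14% of all genes). DESeq2 also called 0 members in each, against 0.109% (both ASOs), 0.79% (ASO1) and 0.238% (ASO2) of all genes. Malat1 itself did not pass in the edgeR fit for both ASOs, at -1.14 ± 0.32 (adjusted p = 0.827). The counts of 0 therefore do not show that members were unchanged. The median log2 fold change was 0.32 over the members, 27 of 35 being positive, and 0.05 over all genes. The comparisons of ASO1 and ASO2 share the 3 scASO tumors.

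The member with the smallest p was Adamts18, which was at 10.7, 14.2 and 11.8 CPM in the ASO1 tumors, at 3.15, 24.7, 2.87 and 3.47 CPM in the ASO2 tumors and at 2.44, 2.25 and 1.39 CPM in the scASO tumors. All 7 ASO tumors were above all 3 scASO tumors, but the log2 difference of 2.34 ± 0.73 did not pass (adjusted p = 0.827). Mmp3 was the other member without overlap, at 5.75, 12.3 and 5.86 CPM with ASO1, at 44.6, 12.1, 19.5 and 9.28 CPM with ASO2 and at 5.53 to 5.69 CPM with scASO (1.25 ± 0.49, adjusted p = 0.827). These were 2 of 35 members, against 0.882% of all genes, and 0 members were lower without overlap (1.43% of all genes). Timp1 differed by 1.00 ± 0.41 and overlapped, with 6.18 CPM in ASO2 tumor 4 and 7.46 CPM in scASO tumor 3.

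Mmp15 was lower at 116, 89.5 and 137 CPM with ASO1 and 99.6, 135, 107 and 191 CPM with ASO2, against 221, 218 and 151 CPM with scASO. ASO2 tumor 4 overlapped the scASO range, and the log2 difference was -0.66 ± 0.22 (adjusted p = 0.827). Mmp9 differed by -2.48 ± 0.95, and scASO tumor 1 at 12.8 CPM stood far above the other 2 scASO tumors at 0.287 and 0.425 CPM. Between the 2 ASOs, 0 of 35 members passed (0% of all genes) with 5 at an unadjusted p under 0.05, against 1743 of 17354 genes. DESeq2 called 0 members there (0.938% of all genes). Mmp13 was 1.58 ± 0.47 higher and Mmp3 1.43 ± 0.53 lower with ASO1 than with ASO2 on the log2 scale.

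ASO2 tumor 1 held the highest Mmp3 (44.6 CPM), Adamts5 (16.2 CPM) and Timp1 (19.4 CPM) of the 10 tumors. It also had the highest sums of fibroblast and pericyte markers (3297 CPM, against 656 to 1928 CPM in the others), adipocyte markers (888 CPM, against 27.2 to 339) and skeletal muscle markers (2150 CPM, against 2.93 to 70.8). Over both ASOs, 16 of 16 fibroblast and pericyte markers were positive against scASO (median 0.66) and 10 of 10 adipocyte markers (median 2.91), none of them called. Their part in the member values was not tested.

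**Figure D5:**
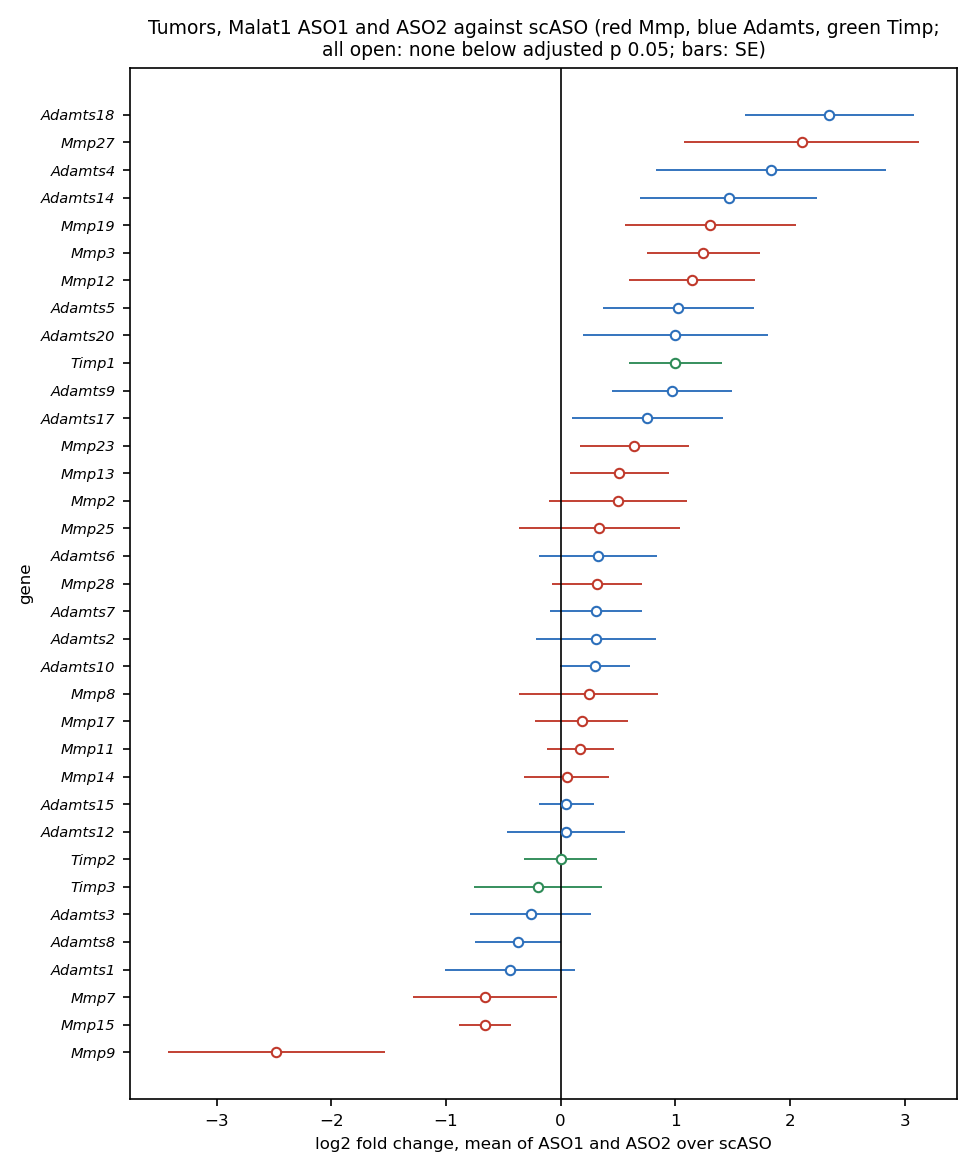
Log2 fold change (x, with SE bars) of the mean of ASO1 and ASO2 tumors over scASO tumors for 35 genes (y). All points are open because none passed the threshold, with Adamts18 at the top at 2.34 and Mmp9 at the bottom at -2.48.

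Whether the response to the Malat1 oligonucleotides differed between organoids and tumors was tested as a contrast over both systems. It was called for 0 of 41 members and 0% of all genes by edgeR, and for 0 members by DESeq2 (0.00708% of all genes). In edgeR 4 members were at an unadjusted p under 0.05 (4.45% of all genes). The 4 were Adamts18 (organoid minus tumor difference -2.71 ± 0.83), Mmp27 (-3.13 ± 1.1), Mmp19 (-1.81 ± 0.71) and Timp4 (-2.49 ± 1.07), each with an adjusted p of 1.

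Members also varied together, given here as a description across libraries that may share tumors or cultures. After removing the mean of each replicate number in the 16 organoids, Mmp10 had a Pearson r of 0.968 with Adamts1, 0.967 with Timp1, 0.953 with Adamts5 and 0.95 with Mmp3. Mmp15 and Adamts18 ran against this group, at -0.638 and -0.868 with Mmp10, and had an r of 0.781 with each other. Mmp2 had its highest r with the ADAMTS proteases Adamts15 (0.913) and Adamts14 (0.905). These organoid values include the 2 libraries that go against their labels, and were not computed without them. For Adamts15 these 2 lay farthest from the Mock library of their number, at log2 differences of -1.54 (ASO2 replicate 1) and 1.74 (scASO replicate 2). Over the 10 tumors Mmp2 had an r of 0.956 with Adamts17 and 0.876 with the procollagen N-proteinase Adamts2, Timp1 an r of 0.903 with Mmp27, and Timp1 and Mmp15 an r of -0.738.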

How the data were processed

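Each of the 26 libraries (TRIzol RNA, TruSeq chemistry, polyadenylated RNA, per the labels' protocols) had its own table of unnormalized read counts, deposited with 37310 genes. The submitters' processing notes name CASAVA, FastQC, STAR, HTSeq, DESeq2 and the mm9 build, while tool versions, the annotation and any strand setting remain unstated in the sources used here. The 5 lines for unassigned reads stayed out of library sizes and tests. Against the reads in genes, those in no feature came to 11.1 to 24.6% in tumors and 8.34 to 14.6% in organoids, ambiguous ones to 3.90 to 4.65% and 4.44 to 8.70%, and multiply aligned ones to 24.1 to 44.0% and 21.2 to 32.7%. Names, exon lengths and positions came from GENCODE M21 (GRCm38), in which 32620 IDs matched and 4690 did not. The count tables hold no positions.

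Tumors, organoids and both together were fitted with edgeR 4.0.16 in R 4.3.3 (quasi-likelihood test, TMM), and groups in a fit shared 1 estimate of the spread. The filterByExpr minimum was 10 for a count and 15 for the total. Benjamini-Hochberg adjustment ran over all genes of a comparison with a threshold of 0.05, and SE is the log2 fold change over the square root of F. Log2 CPM had a prior count of 2. Organoid numbers pair the libraries, since deviations from group means correlated at 0.469 to 0.934 (median 0.818) in 24 of 24 same-numbered pairs. Differently numbered pairs lay at -0.764 to 0.801 (median -0.322), with 14 of 72 above 0.1. ASO2 replicate 1 correlated at 0.469 with Mock replicate 1 and 0.801 with Mock replicate 2. For scASO replicate 2 the values were 0.718 with Mock replicate 1 and 0.539 with Mock replicate 2. In tumors 2 of 9 same-numbered pairs exceeded 0.1. No 2 libraries of a group agreed within sampling noise. The fits were tested on simulated data.

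Members, pathway lists and marker lists were chosen with earlier results of these data known. Named were all Timp genes, the 10 members with the highest level per kb in each system, up to 6 called members per direction and the 3 with the smallest unadjusted p in each comparison, up to 4 per direction in blocked fits, and up to 4 called pathway genes per direction. Further names were chosen after values were seen. Alternatives were DESeq2 1.42.0, its size factors, no filter, the replicate block, spread from the compared tumor groups alone, ASO in place of scASO groups, and libraries left out singly or as the pair that goes against its labels. The comparison of all oligonucleotides with Mock, and the alternatives within blocked fits, were added after values were seen.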

Additional observations from a re-analysis of the deposited data

Results flagged for a closer look

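Single libraries far from the other 3 of their group were sought with Dixon's ratio at its 95% critical value in the groups of 4 libraries, over 133 sets of values. Of these, 10 passed, and chance alone passes about 1 in 20. Of the 10, 5 were ADAMTS proteases and 5 lay in organoids numbered 4.

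In organoids given ASO1, replicate 1 held 51.3 CPM of Adamts15 (nearest 21.1) and 24.0 CPM of the procollagen protease Adamts2 (nearest 7.71). The ratio was taken within treatment groups and takes no account of the replicate number. For Adamts15 the scASO and Mock organoids numbered 1 were near the flagged level, as given above. Organoid replicate 4 stood apart in 5 cases. In Mock it held 34.3 CPM of the gelatinase Mmp9 (nearest 4.39), 0.712 CPM of the collagenase gene Mmp1b (nearest 0.0914) and, at the low end, 0.0837 CPM of Adamts6 (nearest 0.401). With scASO it held 173 CPM of Mmp13 (nearest 31.9), and with ASO2 0.239 CPM of Timp4 (nearest 0.106). These are the organoids with the highest squamous keratinocyte markers, whose part was not tested.

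In tumors given ASO2, replicate 2 held 24.7 CPM of Adamts18 (nearest 3.47) and 28.1 CPM of Adamts4 (nearest 2.59), and replicate 4, the library with the fewest reads, held 6.18 CPM of the leukocyte membrane protease Mmp25 (nearest 1.02).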

How the results depend on the processing

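The absence of called members for Malat1 oligonucleotides against scASO, in tumors and organoids, and for the difference of that response between the 2 systems held in every alternative run, including each library left out and the replicate block. Counts against Mock in organoids depended on the block: 0 without and 9 with it for ASO1, 8 for ASO2, 3 for scASO and 9 for all oligonucleotides. DESeq2 without the block gave 1 for ASO1 (0.0265% of all genes). With the block, DESeq2 gave 14 for ASO1, 12 for ASO2, 9 for scASO and 16 for all, while the share of all genes called rose from 2.38, 1.82, 0.747 and 3.3% to 5.38, 5.33, 3.69 and 7.55%. No filter gave 5 for scASO (0.547%). The block without the 2 libraries against their labels gave 16, 11, 8 and 19 (6.69, 3.42, 1.78 and 9.04% of all genes). Leaving out single libraries gave 6 to 11, 1 to 9, 1 to 2 and 4 to 13. In tumors the numbers do not pair the libraries, and the block also gave 0 calls.

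For organoids against tumors, leaving out single libraries gave 7 to 15 members, and ASO groups in place of scASO groups gave 23 of 41 (56.1%), close to the 51.7% of all genes called. Adamts18 (1.39) and Mmp19 (0.85), not called with scASO groups, were then called at -1.32 and -0.96. The cause was not tested. The replicate block could not be fitted for this comparison. Without scaling by length, Timp1 ranked 9th in organoids and 14th in tumors, and Adamts1 and Timp2 ranked first. Mmp1a, Mmp1b, Mmp10 and Timp4 in tumors are limited by depth.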

Other observations

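Some low members marked single organoid numbers across all 4 groups. The membrane-bound Mmp16 was at 3.62, 3.05, 5.26 and 4.01 CPM in the organoids numbered 3 with ASO1, ASO2, scASO and Mock, and at 0.442 CPM or less in the other 12. Adamts17 was at 6.63, 6.43, 6.42 and 5.65 CPM in those numbered 4, in the same order, and at 1.31 CPM or less in the other 12.

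Others stood out in 1 or 2 libraries. Adamts13, the von Willebrand factor protease, was at 2.31 CPM in ASO2 tumor 2 and at 2.29 CPM in scASO tumor 1, against 0.187 CPM or less in the other 8 tumors. Adamts19 was at 0.88 CPM in ASO2 tumor 2, which also held the highest Adamts4 and Adamts18 of the 10 tumors, and at 0.0643 CPM or less in the other 9. The membrane-anchored Mmp17 was at 4.81 CPM in the scASO organoid numbered 1 and at 1.92 CPM or less in the other 15. These genes were chosen after their values were seen, and these patterns over single libraries were not tested.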
